A study of Mus musculus with 24 samples.

Results

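Hpn, Cela1, Slc25a21 and Narf are 4 genes that lie outside the standard erythroid gene lists and were chosen by their measured diet differences in these same libraries, which were lower in blood progenitors of pups from Western-diet mothers. They were found by symbol among 55414 gene identifiers, of which 52081 carried a symbol, and all 4 passed the filter on low counts that left 19616 genes. In the files they are ENSMUSG00000001249 (Hpn), ENSMUSG00000023031 (Cela1), ENSMUSG00000035472 (Slc25a21) and ENSMUSG00000000056 (Narf). Because the diet contrasts chose the genes, their diet differences are given here as a description and without a test. What was tested is how they followed Car1, carbonic anhydrase 1, and how they differed by sex and batch. Car1 was compared inside pairs of libraries of the same sex, diet and batch, and in a regression with terms for group and batch.

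RNA was sequenced from LSK cells of bone marrow, which lack lineage markers and carry Sca-1 and Kit on their surface, a gate that holds stem cells and multipotent progenitors. There were 4 groups with 6 libraries each: female pups of Western-diet dams, female pups of control dams, male pups of Western-diet dams and male pups of control dams. All dams were C57BL/6J, and they ate Western diet TD.88137 or regular chow 2018SX for 4 weeks before mating, during pregnancy and while nursing. The pups were 21 days old, and no group carried a mutation, transgene or other treatment. Each group had 2 libraries in each of 3 batches, and the labels do not say what a batch stands for. Since dams and litters are not named, some libraries may come from littermates, and a p-value here speaks only of the spread among the libraries at hand.

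Libraries held 38057263 to 51581968 counts in genes. Lines that name no gene took 31.04 to 39.3% of a library, with a median of 34.8%. Of the markers that define the gate, Kit ranged from 267 to 883 CPM over the 24 libraries, where CPM is the count of a gene relative to the TMM-scaled library size. Flt3 ranged from 91.6 to 504 CPM and Cd34 from 227 to 953 CPM, while Ly6a, which encodes Sca-1, stood at 2.14 to 39.9 CPM. Hpn and Cela1 are best known from liver and pancreas, but markers of those tissues were at or near 0: Amy2a1 and Ins2 had no count in any library, Alb had none in 23 libraries and 5 in the other, and Ttr had none in 23 and 1 in the other. Apoa1 had 4 to 20 counts per library. Female control libraries 5 and 6, both of batch 3, weighed on the diet comparison: edgeR called 154 genes in females without them, against 1064 with all libraries, and all 4 genes kept lower values in Western-diet pups of both sexes without them. Western minus control, their log2 differences in that fit ran between -0.64 for Narf and -1.34 for Hpn in females, and between -0.36 for Narf and -0.62 for Hpn in males.

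Hpn encodes hepsin, a type II transmembrane serine protease: it is anchored in the plasma membrane by its amino-terminal end and cuts proteins outside the cell, among them the precursor of hepatocyte growth factor. Cela1 encodes chymotrypsin-like elastase 1, a secreted digestive protease of the pancreas in the mouse. Slc25a21 encodes the mitochondrial carrier that exchanges 2-oxoadipate, an intermediate of lysine and tryptophan breakdown, for 2-oxoglutarate. Narf encodes a nuclear protein that, in human cells, binds the tail of prelamin A, the precursor of lamin A. Car1 is a cytosolic enzyme that interconverts carbon dioxide and bicarbonate and is an early marker of erythroid progenitors.

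The stretches around the start sites of these genes are shown because the genes are compared below with Car1 and with erythroid genes, and GATA factors are the classic regulators of erythroid promoters. RefSeq, on build GRCm38.p6, gave 6 windows for the 4 genes among its 32851 promoter windows, each from 250 bases before to 50 bases after a start. The counts were made on GRCm39, so no coordinate of the count files is used. Capitals mark the GATA letters searched (AGATAA, with T also allowed as its first letter and G as its last, on either strand), and each sequence is read 5′ to 3′ on the strand of its gene.
Hpn, second start, chr7:31110948-31111247, minus strand: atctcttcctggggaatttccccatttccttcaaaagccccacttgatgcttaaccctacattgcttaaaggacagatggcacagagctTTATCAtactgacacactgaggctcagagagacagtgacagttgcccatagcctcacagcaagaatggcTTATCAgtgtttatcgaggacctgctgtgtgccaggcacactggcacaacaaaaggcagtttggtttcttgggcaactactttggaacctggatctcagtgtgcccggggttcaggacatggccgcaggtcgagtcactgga
Cela1, chr15:100687871-100688170, minus strand: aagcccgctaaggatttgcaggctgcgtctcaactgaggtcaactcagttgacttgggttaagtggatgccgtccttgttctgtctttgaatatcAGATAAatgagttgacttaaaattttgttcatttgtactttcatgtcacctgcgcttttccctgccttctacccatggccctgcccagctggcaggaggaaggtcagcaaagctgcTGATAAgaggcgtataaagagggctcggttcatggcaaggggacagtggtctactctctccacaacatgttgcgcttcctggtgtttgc
Slc25a21, second start, chr12:57160594-57160893, minus strand: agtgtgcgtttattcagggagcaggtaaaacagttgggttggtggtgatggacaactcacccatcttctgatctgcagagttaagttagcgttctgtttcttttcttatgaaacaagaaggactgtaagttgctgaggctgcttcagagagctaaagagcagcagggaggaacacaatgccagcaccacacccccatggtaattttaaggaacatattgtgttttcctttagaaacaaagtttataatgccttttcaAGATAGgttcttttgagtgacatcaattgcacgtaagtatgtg
Narf, chr11:121236986-121237285, plus strand: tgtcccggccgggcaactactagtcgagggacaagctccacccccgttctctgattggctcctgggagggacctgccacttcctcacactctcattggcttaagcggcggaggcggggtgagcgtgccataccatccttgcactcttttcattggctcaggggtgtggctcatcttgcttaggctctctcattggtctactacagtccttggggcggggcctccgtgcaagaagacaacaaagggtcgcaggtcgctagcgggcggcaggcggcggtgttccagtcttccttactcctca
The windows of the second Hpn start and of Cela1 held 2 such matches each, and that of the second Slc25a21 start held 1. The first Hpn window, the first Slc25a21 window and the Narf window held none. Matches of this kind are common, since 29.8% of all windows of that length held at least 1. The letters CCNCNCCC, a CACCC-type motif searched on both strands, occurred 3 times in the Narf window, 2 times in the first Hpn window, 1 time in the second Slc25a21 window and not in the other three, and in 49.5% of all windows. A match is only a run of letters and does not show a bound site, and the absence of a match says nothing about a factor.

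Hepsin transcript was present in every library. Hpn had 18.7 to 67.7 CPM in Western-diet females with a median of 33.02, against 55.6 to 138 CPM in control females with a median of 78.9. In males it had 22.6 to 51.1 CPM with a median of 33.6 in Western-diet pups, against 28.3 to 98.4 CPM with a median of 47.3 in control pups. In females 5 of 6 Western-diet libraries lay below every control library, whereas in males 1 of 6 did. Cela1 had 23.2 to 49.6 CPM in Western-diet females with a median of 37.02, against 53.6 to 89.7 CPM in control females with a median of 68.1. Here the female groups did not overlap, a pattern that 0.714% of genes tested showed in the lower direction. In males Cela1 had 22.7 to 41.5 CPM with a median of 31.2 in Western-diet pups, against 28.3 to 72.8 CPM with a median of 48.3 in control pups, and 3 of 6 Western-diet libraries lay below every control. Male groups without overlap were found for 0.291% of genes, and 0.0255% had none in either sex.

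Slc25a21 had 14.5 to 47.8 CPM in Western-diet females with a median of 23.9, against 35.5 to 101 CPM in control females with a median of 53.2. In males it had 16.6 to 38.4 CPM with a median of 24.8 in Western-diet pups, against 21.6 to 67.3 CPM with a median of 33.6 in control pups. The groups overlapped in both sexes, with 4 of 6 Western-diet females and 2 of 6 Western-diet males below every control library of their sex. Narf was the most abundant of the 4 genes: it had 57.3 to 129 CPM in Western-diet females with a median of 81.8, against 84.9 to 269 CPM in control females with a median of 152. In males Narf had 66.7 to 114 CPM with a median of 83.4 in Western-diet pups, against 80.1 to 181 CPM with a median of 103 in control pups. Its groups overlapped most, with 3 of 6 Western-diet females and 1 of 6 Western-diet males below every control library. For each of the 4 genes, in both sexes, all 6 Western-diet libraries lay below the mean of the controls of their sex. For Narf in males this was narrow, with at most 114 CPM against a control mean of 117 CPM. The share of all genes with this pattern was not computed, and nothing is read from it.

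**Figure D1:**
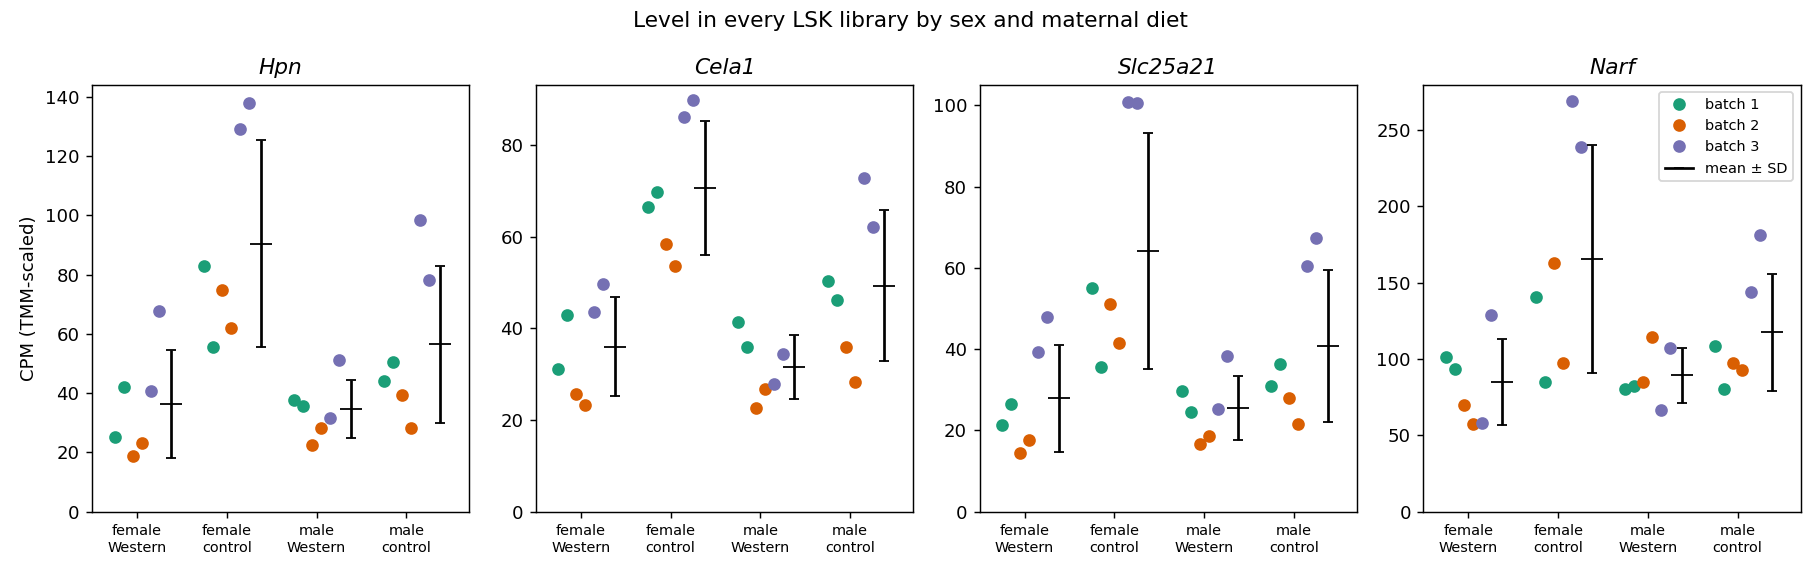
CPM of Hpn, Cela1, Slc25a21 and Narf (vertical axes, TMM-scaled, from 0) in each of the 24 libraries, by sex and maternal diet, coloured by batch, with the mean and SD of the 6 libraries of a group. Cela1 is the gene whose female groups do not overlap, with at most 49.6 CPM in Western-diet females and at least 53.6 CPM in control females, and batch 3 holds the highest control libraries of all 4 genes.

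Per kilobase of exon the order of the 4 genes was the same in every group: Narf, Cela1, Hpn, then Slc25a21. In Western-diet females, for example, Narf averaged 17.7 CPM per kb, Cela1 15.6, Hpn 8.85 and Slc25a21 5.72, while Car1 averaged 206. In control females the same levels were 34.5 CPM per kb for Narf, 30.6 for Cela1, 22.04 for Hpn, 13.2 for Slc25a21 and 558 for Car1. Between neighbours in that order, Narf and Cela1 differed by less than the larger of their SDs in all groups except Western-diet males. Hpn and Slc25a21 did so in Western-diet females and in control males, while Cela1 and Hpn differed by more in every group. Each library gave at least 630 counts for each gene, so counting error was small beside the spread between libraries. The kit does not mark strand, and only Slc25a21 has an overlapping gene in the annotation, Pax9 on the opposite strand, which shares 189 exon bases and had 45 to 281 counts per library. Reads from those bases cannot be assigned to a strand.

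The diet differences were larger in females than in males for all 4 genes. On the log2 scale, Western minus control, Hpn stood at -1.35 ± 0.18 (SE) in females and -0.61 ± 0.18 in males, and Slc25a21 at -1.23 ± 0.15 in females and -0.59 ± 0.15 in males. Cela1 stood at -0.999 ± 0.13 in females and -0.59 ± 0.13 in males, and Narf at -0.89 ± 0.23 in females and -0.33 ± 0.22 in males. Male minus female, the difference between the log2 diet differences was 0.74 ± 0.25 for Hpn, 0.64 ± 0.22 for Slc25a21, 0.41 ± 0.18 for Cela1 and 0.57 ± 0.32 for Narf, given without a test since the diet contrasts chose the genes. Batch 3 weighed on these values: without it the male difference was -0.39 for Hpn, -0.35 for Cela1 and -0.0701 for Narf, and the female difference of Narf was -0.59. For Narf in males it was -0.58 without batch 2 and -0.19 without male Western-diet library 5. Among all genes tested, edgeR called 3.22% lower in Western-diet females, 0.0102% lower in Western-diet males and 3.51% lower in the average over the sexes, and nothing is read from the 4 genes against these shares. The share of counts that name no gene had a median of 34.5% in Western-diet females and 32.4% in control females, and of 36.3% in Western-diet males and 35.3% in control males, and its part in the diet differences was not tested. In bulk RNA, fewer cells of a type and less RNA per cell cannot be told apart.

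Within the 6 sets of libraries that share a sex and a batch, each with 2 Western-diet and 2 control libraries, Hpn, Cela1 and Slc25a21 were lower in the Western-diet pair in all 6. Of all genes tested, 4.16% were lower in all 6 sets. The log2 differences ran from -0.36 to -1.71 for Hpn, from -0.32 to -1.20 for Cela1 and from -0.31 to -1.52 for Slc25a21. Cela1 and Slc25a21 had no overlap between the pairs in any set, and Hpn overlapped in 1, males of batch 2. Of all genes tested, 0.428% were lower without overlap in all 6 sets. Narf was lower in 5 sets and 0.05 higher in males of batch 2, and its pairs were apart in 3 sets. Its largest difference, -1.55, was in females of batch 3. For the counts of Narf and Hpn that fall short of all 6 sets, the share of all genes was not computed, and nothing is read from them.

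**Figure D2:**
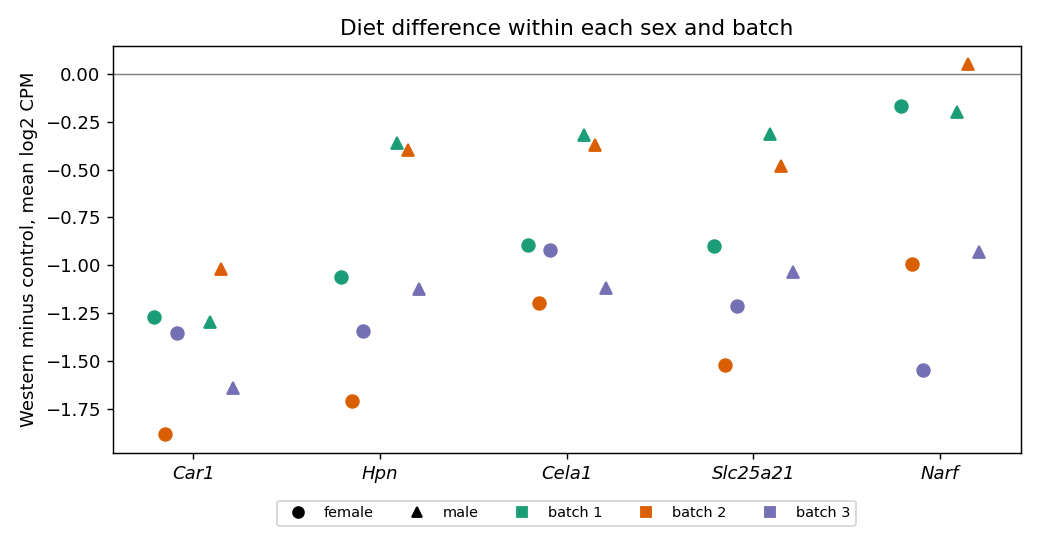
Western minus control difference in mean log2 CPM (vertical axis) for Car1 and the 4 genes, within each sex (circles for females, triangles for males) and batch (colour), each point resting on 2 libraries against 2. All points lie below 0 except Narf in males of batch 2, at 0.05.

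Erythroid markers moved with the diet groups as well. The 28 erythroid progenitor genes in the files summed to 3696 to 8977 CPM in Western-diet females (median 5634), against 7082 to 18386 CPM in control females (median 10290), and to 4183 to 7048 CPM in Western-diet males (median 5390), against 5516 to 14214 CPM in control males (median 7004). Icam4 was at 0 in all groups. The 10 mature erythroid genes, globins among them, summed to 709 to 2873 CPM in Western-diet females (median 1650), against 1215 to 8681 CPM in control females (median 2620), and to 928 to 3233 CPM in Western-diet males (median 2057), against 2553 to 7054 CPM in control males (median 5105), with none at 0. Markers of lineage-positive cells summed to medians of 520 CPM in Western-diet females and 375 CPM in control females, and of 507 CPM in Western-diet males and 440 CPM in control males, with Ly6g at 0 in both control groups. The part of these cells in the levels of Hpn, Cela1, Slc25a21 and Narf was not tested.

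Car1 was the gene they were compared with. It averaged 256 ± 121 CPM in Western-diet females, against 696 ± 255 CPM in control females, and 228 ± 60.3 CPM in Western-diet males, against 604 ± 281 CPM in control males (SD, n = 6 each). Since Car1 fell with the diet too, a correlation over all libraries would only restate the choice of the genes. The comparison was therefore made first inside the 12 pairs of libraries that share sex, diet and batch, where neither diet nor sex nor batch differs.

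Hpn followed Car1 most closely. In Western-diet females of batch 1 the library with more Car1 (284 CPM) had 42.1 CPM of Hpn and its partner (190 CPM of Car1) had 25.1 CPM. In control females of batch 1 the library with 719 CPM of Car1 had 82.8 CPM of Hpn and its partner with 434 CPM of Car1 had 55.6 CPM. Hpn was higher in the library with more Car1 in 10 of 12 pairs, as was the case in at least as many pairs for 2.28% of genes. Its within-pair correlation with Car1 was r = 0.737 (Spearman's rho 0.744), with an exact two-sided permutation p of 0.0103, obtained by swapping libraries within pairs, and 0.0513 after Benjamini-Hochberg adjustment over the 10 relations among the 5 genes. Of all genes, 0.336% had an r with Car1 at least as high, and the median r was -0.03.

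Slc25a21 and Cela1 were less tightly tied to Car1, and Narf least. Slc25a21 moved with Car1 in 8 of 12 pairs, with r = 0.639 (rho 0.638, exact permutation p = 0.0498, adjusted p = 0.125). Cela1 moved with it in 9 of 12 pairs, with r = 0.564 (rho 0.580, exact permutation p = 0.0684, adjusted p = 0.137). Narf moved with it in 6 of 12 pairs, with r = 0.312 (rho 0.193, exact permutation p = 0.318, adjusted p = 0.318). Of all genes, 20.9% moved with Car1 in at least 8 pairs, 8.76% in at least 9 and 59.6% in at least 6, so the pair counts of Slc25a21 and Narf are common ones. None of the 4 relations passed the adjusted threshold, and a p that misses it does not show that a gene is independent of Car1. An r as high as that of Slc25a21 was reached by 1.39% of genes, as high as that of Cela1 by 3.15% and as high as that of Narf by 16.1%.

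**Figure D3:**
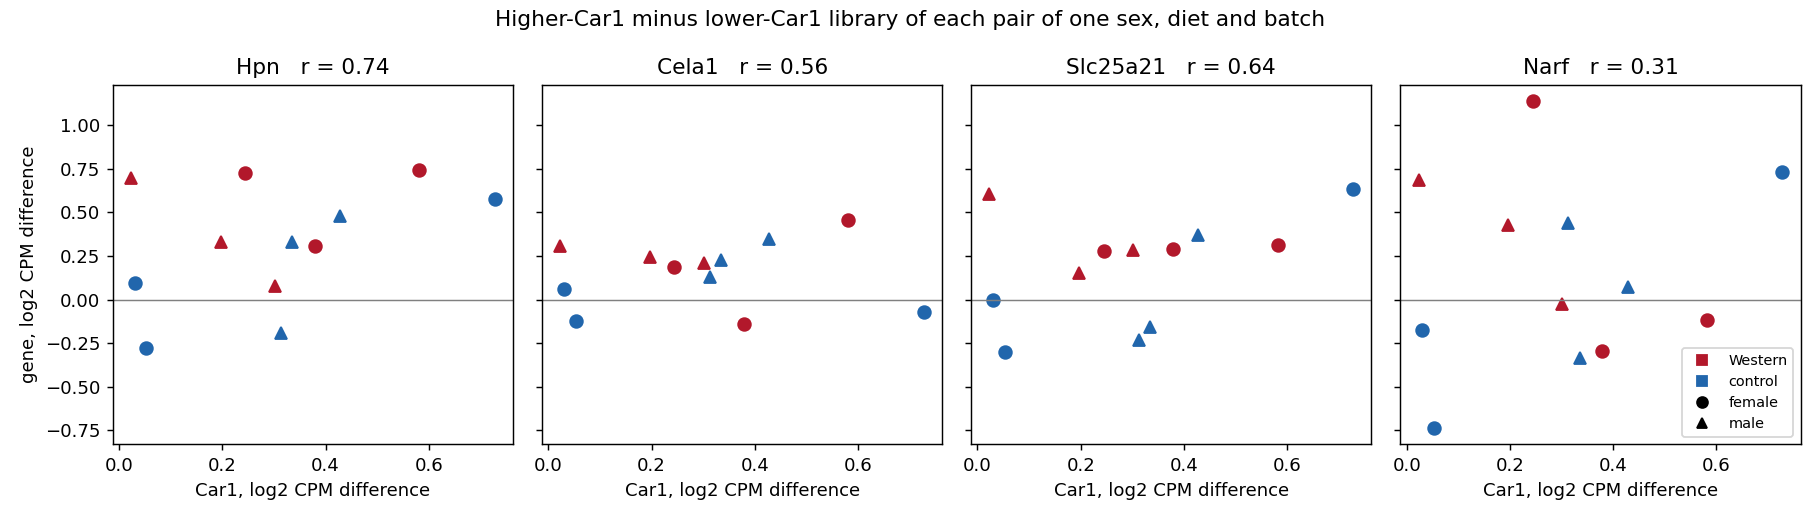
Log2 CPM of each gene in the library with more Car1 minus that in the library with less (vertical axes) against the same difference for Car1 (horizontal axes, never below 0), for the 12 pairs of libraries of the same sex, diet and batch, coloured by diet, with circles for females and triangles for males. Points above 0 move with Car1, which is the case for 10 pairs in Hpn, 9 in Cela1, 8 in Slc25a21 and 6 in Narf, and r treats the 2 libraries of a pair as equally far above and below their mean.

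The relation of Hpn to Car1 had a like size under both diets. Over the 6 Western-diet pairs r was 0.761 for Hpn, 0.698 for Slc25a21, 0.677 for Cela1 and 0.162 for Narf. Exact permutation p-values were 0.03125 for Hpn and for Slc25a21, the smallest that 6 pairs can give, and 0.1875 and 0.6875 for the other two, and the adjusted p was 0.104 for Hpn. Over the 6 control pairs r was 0.773 for Hpn, 0.592 for Slc25a21, 0.470 for Cela1 and 0.475 for Narf, with exact permutation p-values of 0.219 to 0.5. Leaving out the libraries farthest from the median of Car1, female Western-diet library 3 with 121 CPM and male control library 5 with 1040 CPM, gave an r of 0.711 for Hpn, 0.682 for Slc25a21, 0.626 for Cela1 and 0.457 for Narf.

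A regression across all genes gave the same order at the top. Group and batch are separate terms in it, so differences between pairs that these terms do not account for stay in the slope. With group and batch in the edgeR model, the log2 change per log2 unit of Car1 was 0.99 ± 0.19 (SE) for Hpn, close to proportional, 0.74 ± 0.19 for Slc25a21, 0.62 ± 0.34 for Narf and 0.54 ± 0.16 for Cela1. Ordered by edgeR's p-value, Hpn ranked 2 of 19615 genes (adjusted p = 0.240), Slc25a21 ranked 47 (adjusted p = 0.333), Cela1 ranked 139 (adjusted p = 0.339) and Narf ranked 3620 (adjusted p = 0.438). No gene passed edgeR's adjusted threshold for a slope above 0, a background of 0%, while 2483 had an unadjusted p under 0.05 in either direction. Unadjusted, 3 of the 4 genes had a slope above 0 at p under 0.05, against 5.41% of all genes. DESeq2 called 33 genes upward and 15 downward, 0.168% upward, and Hpn (adjusted p = 0.00357) and Slc25a21 (adjusted p = 0.0480) were among them, while limma-voom called 0.

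The slopes did not differ detectably between diets or sexes. Western minus control, the slope differed by -0.04 ± 0.16 for Hpn, -0.05 ± 0.16 for Slc25a21, -0.11 ± 0.14 for Cela1 and -0.50 ± 0.26 for Narf, with edgeR adjusted p-values from 0.379 to 0.927. Male minus female, it differed by -0.04 ± 0.16 for Hpn, -0.11 ± 0.16 for Slc25a21, 0.09 ± 0.14 for Cela1 and -0.21 ± 0.29 for Narf, all with an adjusted p of 1.00. edgeR called 0 genes for either difference, with 2822 at an unadjusted p under 0.05 for diet and 480 for sex.

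With Car1 in the model the diet differences of the 4 genes were near 0 or above it. Western minus control in females, Hpn then stood at 0.12 ± 0.30, Cela1 at -0.19 ± 0.26, Slc25a21 at -0.10 ± 0.31 and Narf at 0.04 ± 0.55 on the log2 scale. In males Hpn stood at 0.69 ± 0.27, Cela1 at 0.12 ± 0.23, Slc25a21 at 0.38 ± 0.28 and Narf at 0.47 ± 0.48. The standard errors were larger than without Car1, whose level itself separates the diet groups. The loss is not particular to the 4 genes: in that model edgeR called 0 genes for diet in females, in males or on average, with 1764, 723 and 1128 at an unadjusted p under 0.05, against 1064, 2 and 1118 called without Car1.

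Some measures of the libraries moved with Car1 within pairs. The share of counts that name no gene had a within-pair r of -0.65 with Car1, -0.51 with Hpn, -0.58 with Narf, -0.40 with Slc25a21 and -0.15 with Cela1. Its part in the relations with Car1 was not tested. The summed mature erythroid genes had within-pair correlations below 0 with all 5 genes, with r of -0.09 with Car1, -0.27 with Hpn, -0.13 with Cela1, -0.36 with Slc25a21 and -0.49 with Narf.

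Among themselves, Hpn and Slc25a21 were the pair most alike. Their within-pair correlation was r = 0.852 (exact permutation p = 0.00488, adjusted p = 0.0488), the only one of the 10 relations past the threshold, and by Spearman's rho of 0.821 the adjusted p was 0.0708. That call was narrow: leaving out 1 library at a time put the adjusted p between 0.0195 and 0.0977, and it missed the threshold in 16 of the 24 runs. Leaving out either library of a pair gives the same r and p, so these runs amount to leaving out each of the 12 pairs in turn. Hpn and Cela1 had r = 0.730 (exact permutation p = 0.0293, adjusted p = 0.0977). The other four relations had r of 0.597 for Slc25a21 with Narf, 0.575 for Hpn with Narf, 0.501 for Cela1 with Slc25a21 and 0.357 for Cela1 with Narf, with exact permutation p-values from 0.0884 to 0.136 and adjusted p-values from 0.142 to 0.151.

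The genes most alike to each of the 4 were read from the same within-pair correlations over 24 libraries, among 12022 genes with a mean of at least 1 CPM, and carry no p because they were picked for a high r. Closest to Hpn were Sphk1, which makes sphingosine 1-phosphate (r = 0.935), Ublcp1, a phosphatase (0.891), Tfrc, the transferrin receptor (0.891), Add2, the beta subunit of the membrane skeleton protein adducin (0.885), and Asns, asparagine synthetase (0.885). Closest to Slc25a21 were the myosin Myo1d (0.923), the collagen chain Col5a1 (0.912), Car2, the main cytosolic carbonic anhydrase (0.879), the lipid flippase Atp8b1 (0.861) and Scrn3 (0.855). Cela1 had looser neighbours: Mme, the peptidase neprilysin (0.831), Ephx2, an epoxide hydrolase (0.821), Rundc3a (0.818), the peroxidase Prdx2 (0.810) and Khk, ketohexokinase (0.807).

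The neighbours of Narf had the highest r: Golm1 (0.958), the Kell blood group protein Kel (0.951), the deacetylase Sirt2 (0.944), Ampd3, an AMP deaminase of red cells (0.942), and the lysophospholipid acyltransferase Lpcat3 (0.940). The 20 neighbours of the 4 genes were 20 different genes. Of these, 5 were on the erythroid progenitor list (Sphk1, Tfrc, Add2, Car2 and Kel), which holds 0.225% of the eligible genes, and 0 were on the mature erythroid list. Car1 itself ranked 79 for Hpn, 168 for Slc25a21, 334 for Cela1 and 3792 for Narf by within-pair r.

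Set against erythroid genes by name, the 4 genes had high within-pair correlations with some of them and low ones with others. Gata1, the master regulator of erythroid cells, had r of 0.79 with Hpn, 0.62 with Cela1, 0.75 with Slc25a21 and 0.77 with Narf. Ermap, a red cell membrane protein, had r of 0.80 with Hpn, 0.46 with Cela1, 0.84 with Slc25a21 and 0.80 with Narf. Epor, the erythropoietin receptor, had r of 0.79 with Hpn, 0.55 with Cela1, 0.78 with Slc25a21 and 0.43 with Narf. Narf, which had the lowest r with Car1 of the 4, had an r with Gata1 and Ermap close to that of Hpn.

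Over the 27 erythroid progenitor genes tested, the median r was 0.709 for Hpn, 0.643 for Slc25a21, 0.541 for Narf and 0.470 for Cela1, with 24, 24, 24 and 23 of them above 0. Over all genes tested, the medians lay between -0.03 and 0.02. For the 10 mature erythroid genes they were -0.193 for Hpn, -0.297 for Slc25a21, -0.361 for Narf and -0.08 for Cela1. Over 6 megakaryocyte genes the medians ran from 0.135 for Cela1 to 0.394 for Narf. Over 9 serine proteases of myeloid granules they ran from -0.09 for Slc25a21 to 0.217 for Cela1. Over 9 genes of LSK identity they ran from -0.278 for Slc25a21 to -0.08 for Narf. Single progenitor genes went as low as -0.51 with Hpn, -0.54 with Cela1, -0.27 with Slc25a21 and -0.71 with Narf. Among the reference genes, Tspan33, a tetraspanin, had r of 0.39 with Hpn, 0.17 with Cela1, 0.52 with Slc25a21 and 0.06 with Narf. Slc30a10, a manganese exporter, had r of -0.02 with Hpn, -0.49 with Cela1, 0.18 with Slc25a21 and 0.03 with Narf. Klf1, a transcription factor of erythroid cells, had r of only 0.05 to 0.33 with the 4 genes. Hbb-bs, an adult beta-globin gene, had r of -0.55 to -0.11. The reference gene Mpo had r of 0.24 with Hpn, 0.28 with Cela1, -0.05 with Slc25a21 and 0.44 with Narf. Mecom, a transcription factor of stem cells, had r of -0.77 with Hpn, -0.69 with Cela1, -0.64 with Slc25a21 and -0.22 with Narf. These correlations are descriptions over 24 libraries in 12 pairs. All genes of a library share its sequencing depth and composition, which can differ between the 2 libraries of a pair. The lists were drawn up with earlier results of these data known.

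**Figure D4:**
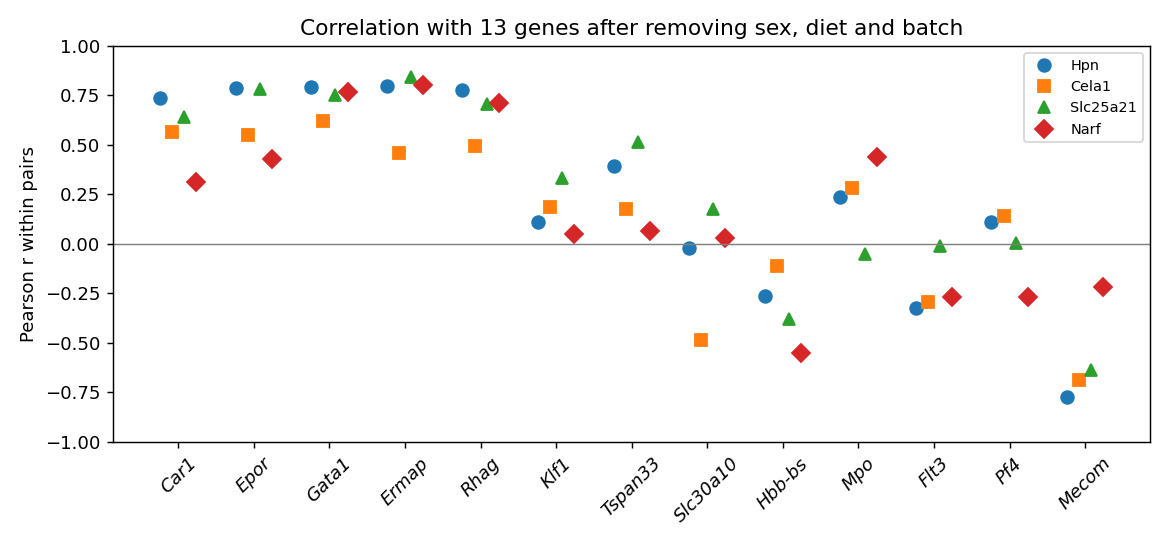
Within-pair Pearson r (vertical axis, -1 to 1) of Hpn, Cela1, Slc25a21 and Narf with 13 named genes (horizontal axis) over 24 libraries in 12 pairs of the same sex, diet and batch. Car1, Epor, Gata1, Ermap, Rhag, Klf1 and Tspan33 lie above 0 for all 4 genes, Hbb-bs, Flt3 and Mecom below 0 for all 4, and the diamonds of Narf are low for Car1 (0.31) but not for Gata1 (0.77).

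Averaged over the diets, the 4 genes had lower levels in males than in females, but none passed the adjusted threshold in edgeR. Male minus female, the log2 difference was -0.35 ± 0.12 (SE) for Hpn, -0.35 ± 0.09 for Cela1, -0.35 ± 0.11 for Slc25a21 and -0.19 ± 0.16 for Narf, with edgeR adjusted p-values of 0.247, 0.122, 0.183 and 0.696. The gap between the sexes was larger among control pups for all 4 genes. This restates their larger diet differences in females, and it is given without a test for the same reason, that the diet contrasts chose the genes. Hpn averaged 90.4 CPM in control females and 56.5 CPM in control males, but 36.3 and 34.5 CPM in Western-diet females and males. Narf averaged 84.9 CPM in Western-diet females and 89.3 CPM in Western-diet males. No test of sex was made within a diet. edgeR called 0 of the 4, against 0.0357% of genes called lower in males. Unadjusted, 3 of the 4 had p under 0.05, against 5.64% of genes lower in males at that threshold. The direction is not particular to these genes. Of the 27 erythroid progenitor genes tested, 26 had lower estimates in males, with a median log2 difference of -0.29, and 15 had an unadjusted edgeR p under 0.05. All 10 mature erythroid genes had higher estimates in males, with a median of 0.38. DESeq2 called Cela1 (adjusted p = 0.0212), as it did 0.576% of genes in that direction, and limma-voom called Cela1 too (adjusted p = 0.0302), with 0.321% of genes. Without a filter on low counts edgeR also called Hpn, Cela1 and Slc25a21, a setting in which it called 1.55% of 37858 genes lower in males.

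Batch differences were larger. Batch 3 had the highest mean of each of the 4 genes and of Car1. Hpn averaged 46.7 CPM in batch 1, 37.2 CPM in batch 2 and 79.4 CPM in batch 3, Cela1 48.0, 34.3 and 58.3 CPM, Slc25a21 32.5, 26.2 and 60.0 CPM, and Narf 96.5, 97.1 and 149 CPM. Car1 averaged 392, 290 and 656 CPM in the same batches. edgeR's test of batch gave adjusted p-values of 3.31e-06 for Slc25a21, 6.07e-05 for Hpn, 0.000123 for Cela1 and 0.0605 for Narf. That is 3 of 4 called, where 24.2% of all genes were called, and Narf was also called by DESeq2 (adjusted p = 0.0277), with 30.1% of genes, and by limma-voom (adjusted p = 0.0341), with 33% of genes. Each batch holds the same number of libraries of every group, so batch is balanced over sex and diet.

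The diet comparison of the genes that share a protein family or pathway with the 4 was read from the same edgeR model, with p-values adjusted over all genes. edgeR called 3.22% of all genes lower and 2.2% higher in Western-diet females, and 3.51% lower in the average over the sexes. Over the 8 lists around them, 9 of the 93 genes tested were called in females, and 2 of the 9, Slc25a38 and Lmna, held without female control libraries 5 and 6. Other type II transmembrane serine proteases were mostly silent: of 15 listed besides Hpn, 6 passed the filter and 1 was called, lower, in females. It was Tmprss6, matriptase-2, which in the liver restrains the iron hormone hepcidin, with 0.309 ± 0.151 CPM in Western-diet females against 1.02 ± 0.707 CPM in control females (SD, n = 6 each; log2 difference -1.57 ± 0.43, edgeR adjusted p = 0.0310, and 0.348 without those 2 libraries). The most abundant of them, Tmprss3, had 7.02 ± 2.05 CPM in Western-diet females and 6.49 ± 2.44 CPM in control females (edgeR adjusted p = 0.605). Of 10 listed inhibitors and substrates of hepsin, 7 were tested and 1 was called: Hgf, hepatocyte growth factor, was higher in Western-diet females, where edgeR called 2.2% of genes higher, with 20.6 ± 6.16 CPM against 13.8 ± 4.91 CPM in control females (log2 difference 0.65 ± 0.18, edgeR adjusted p = 0.0364, and 0.357 without those 2 libraries).

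Other digestive enzymes were nearly absent. Of 11 other pancreatic elastases, chymotrypsins and digestive enzymes, 2 passed the filter and 0 were called in females by edgeR, DESeq2 or limma-voom, with 0 at an unadjusted p under 0.05. The most abundant, Ctrl, had 0.698 ± 0.192 CPM in Western-diet females and 0.795 ± 0.280 CPM in control females. The serine proteases of myeloid granules, which include neutrophil elastase, had 9 of 10 genes tested and 0 called by any of the 3 tools, with 5 at an unadjusted p under 0.05. Over all 19616 genes, 4183 had such a p in females. Neutrophil elastase itself, Elane, had 1170 ± 717 CPM in Western-diet females and 735 ± 158 CPM in control females (log2 difference 0.60 ± 0.29, edgeR adjusted p = 0.229), and the median over the granule list was 0.61 in females, against 0.03 over all genes.

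Around Slc25a21, the enzymes of lysine and tryptophan breakdown had 11 of 13 genes tested and 2 called lower in females. Acmsd, which steers tryptophan carbon away from quinolinate, had 6.82 ± 2.79 CPM in Western-diet females and 13.4 ± 6.34 CPM in control females (SD, n = 6 each; log2 difference -0.95 ± 0.20, edgeR adjusted p = 0.00663, and 0.123 without those 2 libraries). Dhtkd1, a subunit of the enzyme that uses 2-oxoadipate, had 1.76 ± 1.05 CPM in Western-diet females and 3.84 ± 1.31 CPM in control females (-1.12 ± 0.28, edgeR adjusted p = 0.0178, and 0.227 without them). Gcdh, glutaryl-CoA dehydrogenase, was called lower in the average over the sexes (-0.30 ± 0.08, edgeR adjusted p = 0.0289, and 0.1005 without them), as was Acmsd (-0.88 ± 0.14, edgeR adjusted p = 0.000437, and 0.00379 without them). The list median was -0.16 in females.

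All 37 other mitochondrial carriers on the list were tested, and 4 were called lower in females, where edgeR called 3.22% of all genes lower. The list median was -0.07. Slc25a38, which carries glycine for heme synthesis, had 48.3 ± 8.09 CPM in Western-diet females and 117 ± 60.5 CPM in control females (SD, n = 6 each; log2 difference -1.12 ± 0.20, edgeR adjusted p = 0.00165, and 0.0498 without those 2 libraries). Slc25a42, a carrier of coenzyme A, differed by -1.22 ± 0.24 (edgeR adjusted p = 0.00370, and 0.0846 without them), Slc25a44, a carrier of branched-chain amino acids, by -0.73 ± 0.17 (adjusted p = 0.0101, and 0.224 without them) and Slc25a51, a carrier of NAD, by -0.52 ± 0.14 (adjusted p = 0.0321, and 0.351 without them). In the average over the sexes 5 were called, these 4 and Slc25a37, mitoferrin 1, which carries iron (-0.46 ± 0.10, edgeR adjusted p = 0.00636, and 0.0461 without those 2 libraries). Without them 2 of the 5 were called, Slc25a37 and Slc25a38. The most abundant carrier on the list, the adenine nucleotide carrier Slc25a5, had 1880 ± 362 CPM in Western-diet females and 1880 ± 125 CPM in control females.

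Around Narf, the lamina and prelamin A genes had 11 of 11 tested and 1 called. It was Lmna, which encodes prelamin A itself, with 92.1 ± 30.1 CPM in Western-diet females and 246 ± 98.3 CPM in control females (SD, n = 6 each; log2 difference -1.37 ± 0.20, edgeR adjusted p = 0.000329, and 0.0102 without those 2 libraries). In males Lmna had 109 ± 29.2 CPM in Western-diet pups and 163 ± 88.1 CPM in control pups (-0.50 ± 0.20, edgeR adjusted p = 0.493). Narf is related in sequence to Ciao3, a factor of cytosolic iron-sulfur assembly. All 10 other listed genes of that machinery were tested and 0 were called in females by edgeR, DESeq2 or limma-voom, with 2 at an unadjusted p under 0.05. Ciapin1 was called lower in the average (-0.20 ± 0.06, edgeR adjusted p = 0.0409, and 0.135 without those 2 libraries).

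In males, edgeR called 0 of the 93 genes tested on these 8 lists, with 13 at an unadjusted p under 0.05, while DESeq2 called 1 and limma-voom 2. Over all 19616 genes, 1657 had an unadjusted edgeR p under 0.05 in males, and DESeq2 called 100 and limma-voom 112. Of all 19616 genes edgeR called 2 in males, and Car1 was among them, at -1.32 ± 0.15 (edgeR adjusted p = 7.24e-05). For comparison, the erythroid progenitor list had 22 of 27 genes called lower in females (18 without female control libraries 5 and 6) and 1, Car1, in males, with median log2 differences of -1.15 in females and -0.58 in males, against 0.03 and 0.02 over all genes. In females the log2 diet differences were -1.35 for Hpn, -1.23 for Slc25a21, -0.999 for Cela1 and -0.89 for Narf. These genes were chosen by their diet differences, so nothing is read from how near they lie to the list median. No test was made of the likeness.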

How the data were processed

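The authors deposited raw counts per gene, 1 file for each of 24 libraries. STAR, HTSeq, cutadapt, FastQC and DESeq2 were used with build GRCm39, per the submitters' processing notes. Their versions, the gene annotation and whether strand was counted were not given in the sources used here. Groups, replicate numbers and batches came from the labels, and symbols from GENCODE M21, which is of an older build and served for names, overlaps and exon lengths. Lines that name no gene stayed out of library sizes.

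Counts were fitted in edgeR 4.0.16 (R 4.3.3) with filterByExpr and TMM scaling (factors 0.932 to 1.05). The quasi-likelihood model, robust, had terms for group and batch over all libraries (common biological coefficient of variation 0.261). Adjusted p-values are Benjamini-Hochberg over all genes tested, called under 0.05, and an SE is the log2 difference over the root of F. All tests are two-sided. The Car1 slope adds the centred log2 CPM of Car1 (prior count 2) to that model. Within-pair correlations subtract the mean of the 2 libraries of a group and batch, and their exact permutation test takes all 4096 swaps. The model was tested on simulated data. Alternatives were DESeq2 1.42.0, limma 3.58.1 (voom with quality weights), RLE scaling, other filters, other model terms, and batches or libraries left out. Their use on called genes of the lists was chosen after seeing the data.

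Named are the 4 genes, Car1, the 5 genes most alike to each, 12 reference genes, called genes and the most abundant gene of the lists around them, and genes that overlap them. Of 198 listed symbols 197 matched. A symbol with several gene identifiers took the one with the most counts. The genes and lists were chosen with earlier results of these data known. Replicate numbers did not pair libraries across groups, since same-numbered libraries deviated with correlations of -0.43 to 0.17.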

Additional observations from a re-analysis of the deposited data

How the results depend on the processing

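Leaving out 1 library at a time, the within-pair r with Car1 was 0.666 to 0.810 for Hpn, 0.483 to 0.730 for Slc25a21, 0.417 to 0.753 for Cela1 and 0.115 to 0.385 for Narf, and Hpn passed the adjusted threshold in 4 of these 24 runs. For r, leaving out either library of a pair gives the same value, so these runs amount to leaving out each of the 12 pairs in turn. The slope on Car1, fitted anew with 1 library left out at a time, was 0.89 to 1.06 for Hpn, 0.60 to 0.82 for Slc25a21, 0.46 to 0.71 for Cela1 and 0.44 to 0.84 for Narf. Slopes passed the threshold by DESeq2 for Hpn (1.01) and Slc25a21 (0.76), without batch 1 for Hpn (1.10), and without the batch term for all 4, at 0.94 for Hpn, 0.97 for Slc25a21, 0.59 for Cela1 and 0.50 for Narf, a fit in which differences between batches enter the slope. Some fits gave lower slopes for Hpn and Cela1, and these missed the threshold. With a mean for each group and batch the slope was 0.93 for Hpn and 0.37 for Cela1. Without batch 3 it was 0.84 for Hpn and 0.33 for Cela1. The count of genes called for the slope was 3223 without the batch term, 286 without batch 1, 48 by DESeq2 and 1 without female Western-diet library 1, against 0. With the summed mature erythroid genes in place of Car1 the slopes were -0.0923 for Hpn, -0.0181 for Cela1, -0.10 for Slc25a21 and -0.22 for Narf.

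A different correlation removed group and replicate number in place of the mean of each pair. Its r with Car1 was 0.884 for Hpn, 0.728 for Cela1 and 0.751 for Slc25a21, all past the adjusted threshold. It is not a within-pair r, since differences between pairs that group and replicate number do not account for stay in it. The numbers do not pair the libraries, and the cause was not tested. Sex differences passed the threshold without a filter for Hpn (-0.37), Cela1 (-0.37) and Slc25a21 (-0.37), and for Cela1 also by DESeq2 (-0.37) and limma-voom (-0.41). The count of genes called for sex was 967 without a filter, 254 by DESeq2, 173 by limma-voom, 124 without batch 1, 24 with the replicate block and 12 without the batch term, against 36. Batch was called for Narf with RLE scaling (adjusted p = 0.0491), without a filter (1.88e-05), by DESeq2 (0.0277) and by limma-voom (0.0341), and ran from 0.0147 to 0.139 with 1 library left out.

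The diet differences kept their sign in every run but 1 kind: with Car1 as a covariate they were 0.12, 0.69 and 0.41 for Hpn in females, in males and on average, -0.19, 0.12 and -0.0337 for Cela1, -0.10, 0.38 and 0.14 for Slc25a21, and 0.0427, 0.47 and 0.26 for Narf. Over 12 pairs the smallest exact permutation p is 0.000488, but over the 6 pairs of a diet it is 0.03125, which limits what relations within a diet could show after adjustment over 10.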
